A study of Cricetulus griseus with 16 samples.

Results

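The genes described here carry amino acids into the cell or make serine, glycine, one-carbon units and cysteine inside it, and they are known as targets of the transcription factor ATF4. They are Slc7a11, Slc3a2, Slc7a5, Slc7a1, Phgdh, Psat1, Psph, Shmt2, Mthfd2 and Cth, and they were found by gene name, ignoring case, in the table of read counts of Chinese hamster ovary (CHO) cells. All 10 were present among 20824 genes. The list of names was drawn up by function, at a time when earlier results of these data were known.

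RNA was taken from CHO cells of the line ATCC CCL-61, grown in Ham's F-12K medium with fetal bovine serum at 37 °C and seeded 24 h earlier. The 4 groups were cells kept at 37 °C, cells heated to 40 °C for 1 h, cells heated to 40 °C for 6 h and cells heated to 42.5 °C for 1 h. Each group held 4 libraries of this single line, lettered A to D, which the study calls biological repeats. The 37 °C group was labelled as control, with no separate control for the 6 h of incubation.

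ATF4 is the effector of the integrated stress response. Kinases that sense amino acid shortage, unfolded protein in the endoplasmic reticulum, haem shortage or viral RNA phosphorylate the translation initiation factor eIF2, which slows protein synthesis in general while the ATF4 mRNA is translated more. ATF4 then binds composite C/EBP-ATF elements and raises transcription of genes that import amino acids and synthesise them. Since ATF4 is controlled largely at translation, the level of its mRNA is not a measure of its activity.

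The libraries held 10504192 to 14668365 counts. The library of replicate D at 37 °C stood apart: 18.1% of 10434 genes differed in it by 1.5-fold or more from the mean of replicates A to C, and its correlation across genes with those 3 was at most 0.975, while every other pair of libraries within a group correlated at 0.993 or more. The study left out 1 control library, and comparison of its counts with the deposited table showed that it was this one. It was therefore left out of the group values and tests below, and results that change with it are given both ways. The heat treatments showed in Dnajb1, an Hsp70 co-chaperone, at 26.5 to 30.3 CPM (counts per 1000000 counts of the library) at 37 °C, 53.2 to 125 CPM at 40 °C for 1 h, 40.0 to 54.5 CPM at 40 °C for 6 h and 242 to 522 CPM at 42.5 °C. Of 4 heat response genes (Dnajb1, Hspb1, Hsph1 and Hspa5), Dnajb1 was the 1 lower after 6 h than after 1 h at 40 °C. The other 3 had higher fitted levels, 1 of them with an adjusted p under 0.05. Hspa5, also named BiP, lay at 2030 to 2160 CPM in the 3 controls and 2620 CPM in the library left out. It lay at 2170 to 2530 CPM after 1 h and 3830 to 5830 CPM after 6 h at 40 °C, and at 2330 to 2810 CPM at 42.5 °C. Vim, a marker of mesenchymal and cultured cells, lay at 2190 to 2320 CPM in the 3 controls and at 2700 CPM in the library left out. It was lower after 6 h at 40 °C, at 1830 to 2140 CPM (log2 fold change -0.15, adjusted p = 0.0409; with all 4 controls -0.23, adjusted p = 0.13), and its part in the results below was not tested. In all libraries 6 markers of leukocytes, endothelium, epithelium and neurons (Ptprc, Pecam1, Cdh5, Epcam, Cdh1 and Tubb3) summed to 1.78 to 4.16 CPM, nearly all of it Cdh1.

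Levels are given as CPM scaled by the trimmed mean of M values (TMM), a single factor per library that allows for differences in composition. They are shares of a library, so less RNA per cell and fewer cells with a transcript cannot be told apart. CPM is not corrected for transcript length, and levels are compared only between conditions for the same gene. Each difference was tested with edgeR's quasi-likelihood test over all genes, with Benjamini-Hochberg adjusted p. A gene is said to have risen or fallen where the adjusted p was under 0.05, and to be called where the fold change was also 1.5 or more.

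Among the amino acid genes 6 fell after 6 h at 40 °C, none moved past the threshold after 1 h at 40 °C, and at 42.5 °C 1 rose and 2 fell. Of the 9 genes with enough reads to test, 9 had lower fitted levels after 6 h at 40 °C than at 37 °C, 6 of them fell and 1, Slc7a11, was called, while Slc3a2, Psat1 and Mthfd2 did not pass. With all 4 control libraries 4 fell after 6 h, and at 42.5 °C 0 rose and 1, Shmt2, fell. After 6 h at 40 °C the median log2 fold change of the 9 was -0.28, beside 0.00 over all 10499 genes tested. Over all genes, 3.11% were called there and 29.4% passed the adjusted p alone, with 14.8% of all genes passing it downwards. At 42.5 °C 43.1% of 10470 genes passed it, and the amino acid genes are not above that share. In every comparison with 37 °C the shares over all genes come from the tests with 3 controls. They are therefore no match for counts with all 4 controls.

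Slc7a11 (ENSCGRG00001013535) encodes xCT, the light chain of the antiporter that brings in cystine in exchange for glutamate and so feeds glutathione synthesis. Its levels were 5.08, 6.10 and 5.63 CPM in replicates A, B and C at 37 °C, and 3.36, 2.46, 2.21 and 2.96 CPM in replicates A to D after 6 h at 40 °C. Every library of the 6 h group lay below the 3 controls. The mean fell from 5.60 ± 0.51 CPM (SD, n = 3) to 2.75 ± 0.52 CPM (SD, n = 4), and the fitted log2 difference was -1.03 (SE 0.17, adjusted p = 0.000265). After 1 h at 40 °C the levels were 4.10, 4.71, 5.41 and 3.42 CPM, overlapping with the controls and just above the 6 h libraries. This intermediate level did not differ from 37 °C past the threshold (log2 fold change -0.35, SE 0.16, adjusted p = 0.315). At 42.5 °C the levels were 3.87, 5.40, 5.23 and 5.71 CPM, again overlapping with the controls. The log2 fold change against 37 °C was -0.14 with a 95% interval of -0.46 to 0.19 (adjusted p = 0.489). These levels rested on 28 to 83 counts per library, fewer than for the other 8 genes, so that counting error weighs more on them. In the control library left out of the tests Slc7a11 stood at 3.23 CPM, within the range of the 6 h group. With that library included the fall after 6 h was -0.88 on the log2 scale (adjusted p = 0.0328).

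Slc3a2 (ENSCGRG00001025072) encodes the heavy chain CD98, which pairs with xCT, with LAT1 and with several other light chains and carries them to the plasma membrane. At 37 °C it measured 203, 202 and 197 CPM, and after 6 h at 40 °C 165, 215, 172 and 150 CPM. Replicate B of the heated group lay above all 3 controls, and the other three lay below them. The log2 fold change of -0.19 (SE 0.08) did not pass the threshold (adjusted p = 0.0911), whereas without replicate B it was -0.30 (adjusted p = 0.000635). Slc3a2 measured 183 to 201 CPM after 1 h at 40 °C and 202 to 217 CPM at 42.5 °C. Neither differed from 37 °C past the threshold, with 95% intervals of -0.16 to 0.03 and -0.03 to 0.14 on the log2 scale.

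Slc7a5 (ENSCGRG00001021000) encodes LAT1, the CD98-linked importer of leucine and other large neutral amino acids. It measured 273, 266 and 260 CPM at 37 °C and 194, 203, 184 and 166 CPM after 6 h at 40 °C, with no overlap between these libraries. The fitted log2 difference was -0.51 (SE 0.06, adjusted p = 1.1e-05). It was also lower after 1 h at 42.5 °C, where the libraries held 217, 205, 209 and 179 CPM and again did not overlap with the 3 controls (log2 fold change -0.39, SE 0.05, adjusted p = 3.06e-05). After 1 h at 40 °C the values of 244, 270, 234 and 226 CPM overlapped with the controls (log2 fold change -0.13, adjusted p = 0.275). Without replicate B of that group this difference was -0.18 (adjusted p = 0.046). The control library that was left out held 153 CPM, below every other library of the series. With it included neither fall of Slc7a5 passed the threshold, at -0.35 after 6 h at 40 °C (adjusted p = 0.2) and -0.22 at 42.5 °C (adjusted p = 0.403).

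Slc7a1 (ENSCGRG00001019393) encodes CAT1, the importer of arginine, lysine and ornithine, which works without CD98. Its levels were 116, 116 and 127 CPM at 37 °C and 115, 119, 121 and 108 CPM after 1 h at 40 °C. They were 86.8, 76.6, 77.6 and 83.8 CPM after 6 h at 40 °C, and 132, 133, 137 and 144 CPM after 1 h at 42.5 °C. The 6 h libraries were the lowest of the 15 and the 42.5 °C libraries the highest, and neither group overlapped with any other. Against 37 °C Slc7a1 fell by 0.56 on the log2 scale after 6 h at 40 °C (SE 0.06, adjusted p = 3.55e-06) and rose by 0.20 at 42.5 °C (SE 0.05, adjusted p = 0.00415). The library left out held 84.5 CPM, in the range of the 6 h group. With it the fall was -0.45 (adjusted p = 0.0377), and the rise at 42.5 °C was 0.32 and missed the threshold (adjusted p = 0.0968).

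**Figure D1:**
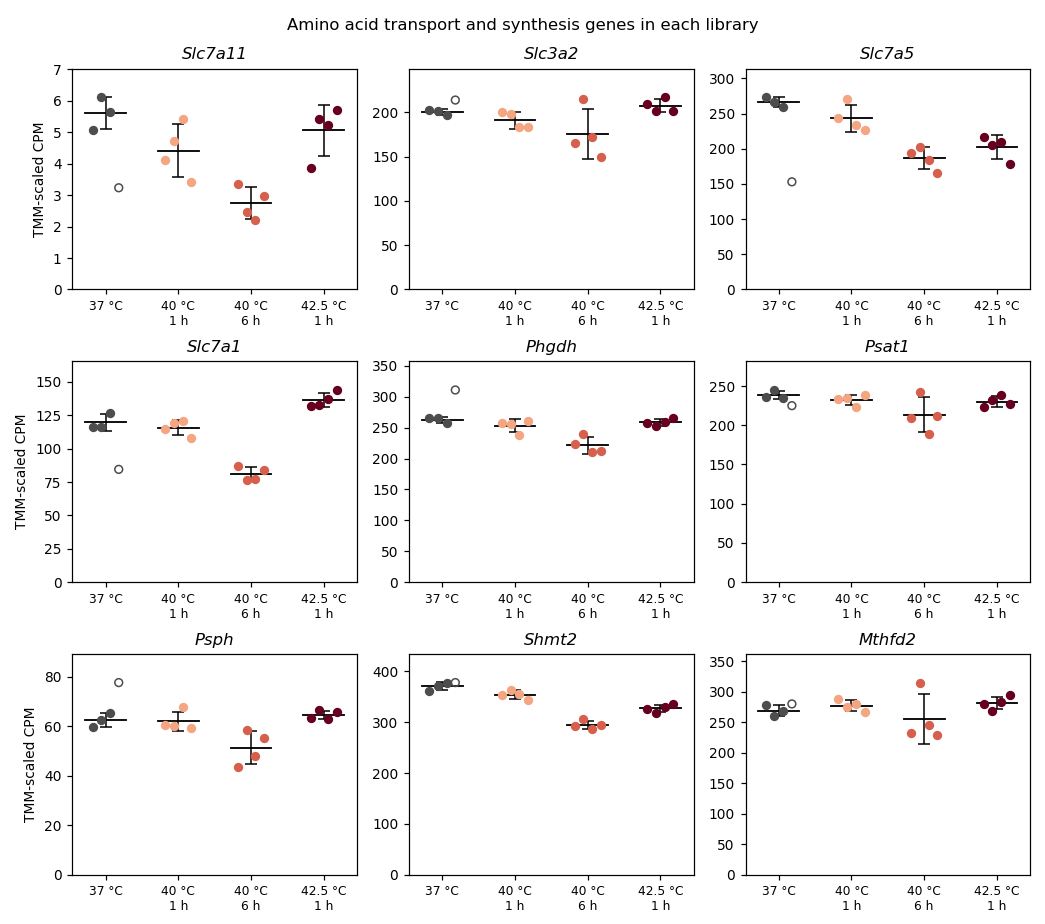
TMM-scaled CPM (vertical axes, from 0) of the 9 tested genes in each library of the 4 groups. Filled points are libraries, open points the control library left out, bars the mean and whiskers the SD (n = 3 at 37 °C and n = 4 in each heated group). Slc7a11, Slc7a5, Slc7a1, Phgdh, Psph and Shmt2 have every 6 h library below the 3 filled controls. For Slc7a11 and Slc7a1 the open control lies within the 6 h range, and for Slc7a5 below it. Of 46 tested genes of related lists, 24 also had no overlap between these groups, in either direction. The share over all genes was not computed. Replicate B of the 6 h group stands above the others of its group for Slc3a2, Psat1 and Mthfd2.

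The serine pathway runs from the glycolytic intermediate 3-phosphoglycerate through Phgdh, its first and committed enzyme, then the aminotransferase Psat1 and the phosphatase Psph. After 6 h at 40 °C the first and last of these enzymes fell by less than the transporters Slc7a5 and Slc7a1 in fitted size, although no test compared one gene with another. With all 4 controls this order did not hold for Psph (-0.365) against Slc7a5 (-0.348), and Phgdh was at -0.306. Phgdh (ENSCGRG00001015588) measured 265, 266 and 257 CPM at 37 °C and 223, 240, 210 and 212 CPM after 6 h at 40 °C. All 4 heated libraries lay below the controls, and the log2 fold change was -0.24 (SE 0.05, adjusted p = 0.00199). Psph (ENSCGRG00001018556) measured 59.9, 62.6 and 65.3 CPM at 37 °C and 43.6, 58.6, 48.1 and 55.1 CPM after 6 h at 40 °C, also without overlap. Its fall of -0.28 (SE 0.08, adjusted p = 0.0143) missed the threshold without replicate B (-0.28, adjusted p = 0.0527) or C (-0.25, adjusted p = 0.0598) at 37 °C, and with all 4 controls (-0.36, adjusted p = 0.0596). Psat1 (ENSCGRG00001010797) measured 236, 245 and 235 CPM at 37 °C and 209, 243, 189 and 212 CPM after 6 h at 40 °C. The second of these heated values is replicate B, the only one within the range of the controls. The log2 fold change of Psat1 was -0.16 (SE 0.06, adjusted p = 0.0698), and without replicate B it was -0.23 (adjusted p = 0.00383). In the control library left out, Phgdh at 311 CPM and Psph at 77.7 CPM were above all other libraries, opposite in direction to Slc7a11, Slc7a5 and Slc7a1 there.

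None of these 3 enzymes differed from 37 °C past the threshold after either 1 h treatment. For Phgdh the 95% interval of the log2 fold change was -0.14 to 0.04 at 40 °C and -0.09 to 0.06 at 42.5 °C. For Psat1 it was -0.12 to 0.05 and -0.13 to 0.04, and for Psph -0.14 to 0.11 and -0.06 to 0.17. In the 42.5 °C group the libraries lay close together, at 252 to 265 CPM for Phgdh, 223 to 239 CPM for Psat1 and 63.1 to 66.5 CPM for Psph.

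Shmt2 and Mthfd2 are the mitochondrial enzymes that pass the serine carbon on to folate. Shmt2 splits serine into glycine and a one-carbon unit, and Mthfd2 oxidises the folate that carries that unit. Shmt2 (ENSCGRG00001018472) measured 362, 372 and 378 CPM at 37 °C, 354, 364, 355 and 344 CPM after 1 h at 40 °C and 293, 306, 287 and 295 CPM after 6 h at 40 °C. At 42.5 °C it measured 326, 319, 330 and 335 CPM. The 6 h libraries were the lowest and the 42.5 °C libraries the next, each group apart from all others. It fell after 6 h at 40 °C (log2 fold change -0.33, SE 0.04, adjusted p = 4.65e-05) and at 42.5 °C (-0.17, SE 0.04, adjusted p = 0.00143). Of the 3 genes that moved past the threshold at 42.5 °C it was the one that also did so with all 4 controls, at -0.17 (adjusted p = 0.0375). The library left out held 378 CPM, equal to the highest of the other 3 controls.

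Mthfd2 (ENSCGRG00001000285) had the smallest fitted difference after 6 h. It measured 278, 260 and 268 CPM at 37 °C and 232, 315, 245 and 229 CPM after 6 h at 40 °C, where replicate B was the highest library of the series and the other three lay below the controls. The log2 fold change was -0.07 with a 95% interval of -0.25 to 0.10 (adjusted p = 0.546). Without replicate B it was -0.19 (adjusted p = 0.00865), so the result for Mthfd2 after 6 h rested on that library. After 1 h at 40 °C Mthfd2 measured 266 to 288 CPM and at 42.5 °C 269 to 294 CPM, and neither difference passed the threshold (log2 fold change 0.05, adjusted p = 0.653, and 0.08, adjusted p = 0.159).

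Cth (ENSCGRG00001017639), the last enzyme of transsulfuration, which releases cysteine from cystathionine, had no counts in 14 of the 16 libraries. Replicates C and D at 40 °C for 1 h held 1 count each. At these depths 3 counts, the most that a count of 0 allows, correspond to 0.20 to 0.29 CPM. Cth therefore entered none of the main tests, which filter out low counts, and no difference could be detected. Intervals of this kind cover counting error only.

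**Figure D2:**
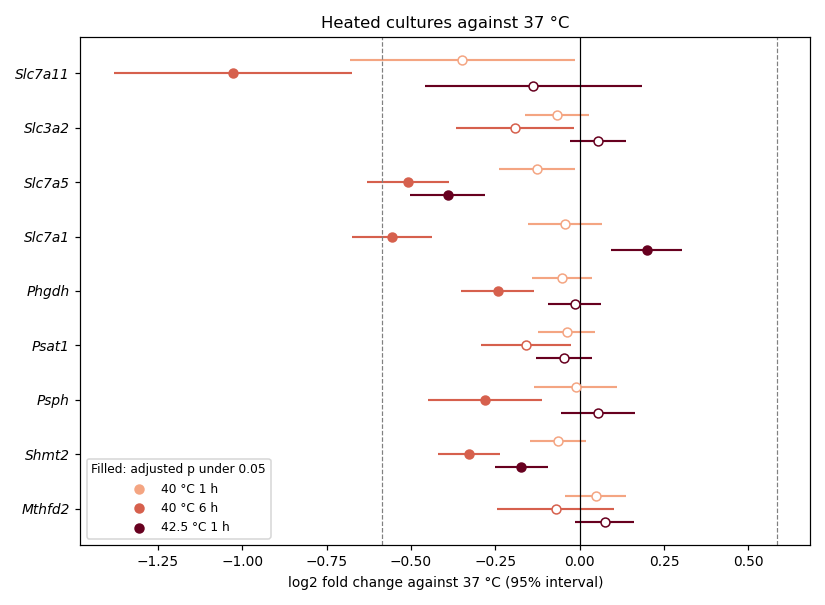
Fitted log2 fold change against 37 °C (horizontal axis) of each tested gene with its 95% interval, for each heat treatment, 4 libraries each against 3 controls. Filled points have an adjusted p under 0.05 and dashed lines mark 1.5-fold; 6 genes are filled for 40 °C 6 h, all to the left, 3 for 42.5 °C 1 h, of which Slc7a1 is to the right, and none for 40 °C 1 h.

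After 1 h at 40 °C 0 of the 9 genes were called and 0 passed the adjusted p alone, beside 0.334% and 1.64% of 10494 genes. Slc7a11 (adjusted p = 0.315) and Slc7a5 (adjusted p = 0.275), both lower, were the 2 with an unadjusted p under 0.05. DESeq2 with the same rule also called 0. The fitted differences were small, 8 downwards and 1 upwards, with a median of -0.05. After 1 h at 42.5 °C 0 of the 9 were called and 3 passed the adjusted p, 1 upwards (Slc7a1) and 2 downwards (Slc7a5 and Shmt2), with a median of -0.02. Over all 10470 genes tested there 7.51% were called and 43.1% passed the adjusted p, and the 3 of 9 amino acid genes are not above that share. The same 3 genes had an unadjusted p under 0.05, and DESeq2 with the same rule also called 0. The 3 comparisons with 37 °C share their control libraries.

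The question of duration was addressed by setting 6 h at 40 °C against 1 h at the same temperature. Here 9 of 9 genes were lower at 6 h, with a median of -0.26, 6 fell and 1, Slc7a11, was called. Of all 10439 genes, 1.28% were called and 18.5% passed the adjusted p, 9.04% downwards. Slc7a1 fell by 0.51 (SE 0.05, adjusted p = 2.02e-05), Slc7a5 by 0.38 (SE 0.06, adjusted p = 0.000752) and Shmt2 by 0.26 (SE 0.04, adjusted p = 0.000474). Slc7a11 fell by 0.68 (SE 0.18, adjusted p = 0.0154), yet it missed the threshold without replicate C of the 1 h group (-0.57, adjusted p = 0.0561) or replicate C of the 6 h group (-0.59, adjusted p = 0.0588). Psph fell by 0.26 on the log2 scale (adjusted p = 0.0266) and Phgdh by 0.19 (adjusted p = 0.0159). Psph missed the threshold without replicate C at 1 h (adjusted p = 0.0902) or replicates A (adjusted p = 0.0641) or C (adjusted p = 0.0866) at 6 h, and Phgdh missed it without replicate C at 6 h (adjusted p = 0.062). Slc3a2, Psat1 and Mthfd2 did not pass here, and each did without replicate B of the 6 h group (adjusted p = 0.0148, 0.0248 and 0.00471). This comparison does not use the control libraries.

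Temperature at equal duration was compared between 42.5 °C and 40 °C for 1 h. None of the 9 genes was called and 4 passed the adjusted p, beside 5.27% called and 36.1% past the adjusted p among 10441 genes. By unadjusted p under 0.05 the same 4 genes stood out, and DESeq2 called 0. Slc7a1 was higher at 42.5 °C (log2 fold change 0.24, SE 0.05, adjusted p = 0.000916) and Slc7a5 lower (-0.26, SE 0.06, adjusted p = 0.00345), and both stayed past the threshold without any 1 library. Slc3a2 was higher by 0.12 (adjusted p = 0.0361) and Shmt2 fell by 0.11 (adjusted p = 0.0274). Slc3a2 missed the threshold without replicate C or D at 40 °C or replicate A or C at 42.5 °C (adjusted p from 0.0526 to 0.0997). Shmt2 missed it without replicate B or C at 40 °C or replicate A, B or C at 42.5 °C (adjusted p from 0.0503 to 0.107).

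The last comparison set 42.5 °C for 1 h against 40 °C for 6 h, which differ in both temperature and time. All 9 tested genes were higher at 42.5 °C, with a median of 0.23; 6 rose (Slc7a11, Slc3a2, Slc7a1, Phgdh, Psph and Shmt2) and 2 were called. Among 10427 genes 8.25% were called and 47.0% passed the adjusted p, 22.5% upwards. Slc7a1 was called at a log2 difference of 0.75 (SE 0.05, adjusted p = 8.86e-09) and Slc7a11 at 0.89 (SE 0.18, adjusted p = 0.000534), and neither overlapped between these groups. Phgdh was higher by 0.23 on the log2 scale (adjusted p = 0.000859), Psph by 0.33 (adjusted p = 0.00155), Shmt2 by 0.15 (adjusted p = 0.00508) and Slc3a2 by 0.24 (adjusted p = 0.0157). The difference in Slc3a2 missed the threshold without replicate D of the 6 h group (0.18, adjusted p = 0.0585). Slc7a5 did not differ past the threshold (0.12, 95% interval -0.02 to 0.25), except without replicate D at 42.5 °C (0.17, adjusted p = 0.0241). Psat1 (0.11, adjusted p = 0.14) and Mthfd2 (0.14, adjusted p = 0.133) passed it without replicate B of the 6 h group (adjusted p = 0.00731 and 0.000318).

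The order of the group means was thus not the same for all genes. The 6 h group had the lowest mean for each of the 9. All comparisons with that group use the same 6 h libraries, so their results are not independent of each other. Slc7a5, Shmt2 and Psat1 were highest at 37 °C, followed by 1 h at 40 °C, then 42.5 °C, and lowest after 6 h at 40 °C. For Slc7a5 the step from 37 °C to 40 °C for 1 h and that from 42.5 °C to 40 °C for 6 h did not pass the threshold, for Shmt2 the first step alone did not, and for Psat1 no step did. Slc7a1, Slc3a2, Psph and Mthfd2 had their highest mean at 42.5 °C, and of these Slc7a1 alone differed from 37 °C past the threshold. The highest group mean was 2.04 times the lowest for Slc7a11, 1.68 times for Slc7a1 and 1.42 times for Slc7a5, and between 1.10 and 1.26 times for the other 6. These means at 37 °C are of 3 controls, and orders and ratios with the library left out were not computed. That library lay below the 3 controls for Slc7a11, Slc7a5, Slc7a1 and Psat1 and above them for Slc3a2, Phgdh, Psph and Mthfd2. With it the place of 37 °C in the order could change.

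Since the light chains xCT and LAT1 are carried to the membrane by the heavy chain CD98, the ratio of their read counts within a library was also computed, as a description with no test. The size of such a ratio has no meaning without transcript lengths, but its course over the conditions does not depend on the scaling between libraries. The ratio of Slc7a5 to Slc3a2 was 1.33 ± 0.01 (SD, n = 3) at 37 °C, 1.27 ± 0.07 (SD, n = 4) after 1 h at 40 °C, 1.08 ± 0.10 (SD, n = 4) after 6 h at 40 °C and 0.975 ± 0.068 (SD, n = 4) at 42.5 °C. All libraries of the last 2 groups lay below all 3 controls. The ratio of Slc7a11 to Slc3a2 was 0.0250 to 0.0302 at 37 °C and 0.0114 to 0.0204 after 6 h at 40 °C, also without overlap, while at 42.5 °C it overlapped with the controls at 0.0185 to 0.0282. In the library left out, these ratios were 0.717 and 0.0151. Slc7a1, which does not pair with CD98, gave 0.569 to 0.648 against Slc3a2 at 37 °C, 0.357 to 0.559 after 6 h at 40 °C and 0.630 to 0.712 at 42.5 °C.

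Mitochondrial Shmt2 and Mthfd2 have cytosolic counterparts in Shmt1 and Mthfd1. The ratio of Shmt2 to Shmt1 was 3.78 to 4.05 at 37 °C, 3.70 to 3.94 after 1 h at 40 °C, 2.98 to 3.26 after 6 h at 40 °C and 3.23 to 3.80 at 42.5 °C. The 6 h libraries lay below all 3 controls, and at 42.5 °C replicate D alone reached the range of the controls. The ratio of Mthfd2 to Mthfd1 overlapped between the controls and the 6 h group, at 0.655 to 0.695 at 37 °C and 0.593 to 0.780 after 6 h at 40 °C. Psat1 against Phgdh was 0.892 to 0.921 at 37 °C and 0.899 to 1.01 after 6 h.

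**Figure D3:**
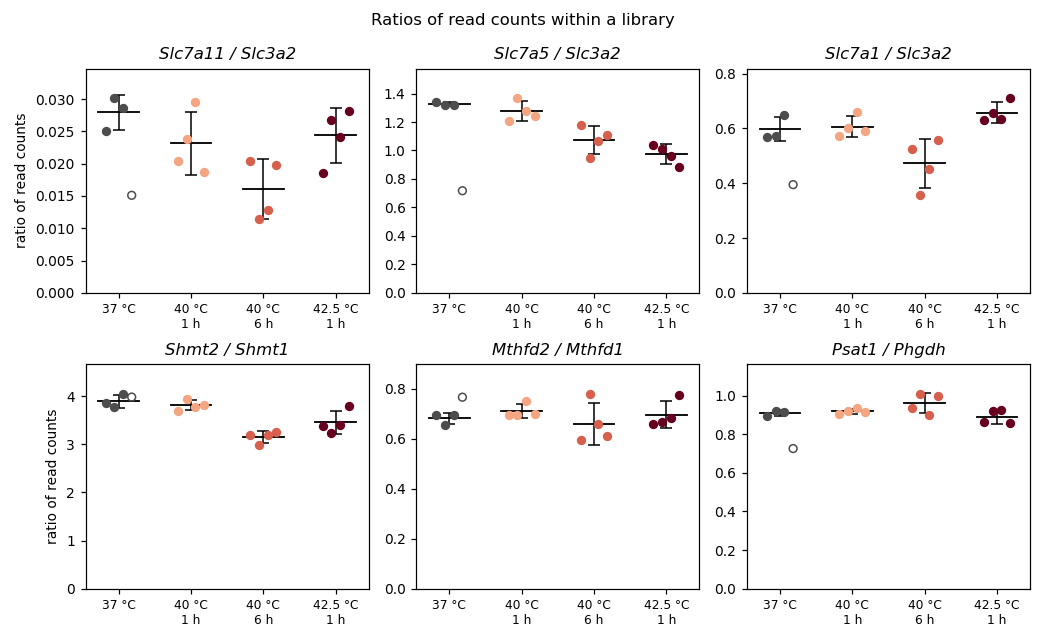
Ratios of read counts of 2 genes in the same library (vertical axes, from 0) for the light chains and Slc7a1 over Slc3a2, the mitochondrial over the cytosolic folate enzymes, and Psat1 over Phgdh. Filled points are libraries, open points the control library left out, bars the mean and whiskers the SD (n = 3 at 37 °C, n = 4 in each heated group); Slc7a5 over Slc3a2 lies at 1.32 to 1.34 in the filled controls and at 0.884 to 1.04 at 42.5 °C.

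Atf4 (ENSCGRG00001018678), whose product is the shared regulator, measured 186, 174 and 229 CPM at 37 °C and 188, 122, 210 and 145 CPM after 1 h at 40 °C. After 6 h at 40 °C it measured 113, 115, 112 and 126 CPM, below every control, and at 42.5 °C 186, 205, 205 and 229 CPM, within their range. The fall after 6 h was called (log2 fold change -0.75, SE 0.07, adjusted p = 2.68e-06), and the differences after 1 h at 40 °C (-0.24, adjusted p = 0.448) and at 42.5 °C (0.08, adjusted p = 0.449) did not pass the threshold. The control library left out held 233 CPM, so that it was low in Slc7a11, Slc7a5 and Slc7a1 but not in Atf4 mRNA. Of 13 regulators of the integrated stress response, 2 were called lower after 6 h at 40 °C (Atf4 and Atf3) and 2 were called higher at 42.5 °C (Atf3 and Cebpb). Passing the adjusted p were 3 upwards and 3 downwards in the first case, beside 29.4% of all genes, and 6 upwards and 1 downwards in the second, beside 43.1%. With all 4 controls 1 downwards (Atf4, -0.81, adjusted p = 0.00238) and 4 upwards were left. Cebpb was the 1 of the 13 called after 1 h at 40 °C, and it rose. With all 4 controls no gene of the lists passed there, the heat-induced Dnajb1 included, and Cebpb, at 9.59 CPM in the library left out, had a log2 fold change of 0.47 (adjusted p = 0.807). Atf3, a stress-induced repressor and activator of the same family, measured 3.88 to 4.78 CPM at 37 °C, 2.29 to 3.80 CPM after 6 h at 40 °C (log2 fold change -0.62, adjusted p = 0.0204; with all 4 controls -0.54, adjusted p = 0.105) and 8.47 to 16.9 CPM at 42.5 °C (1.47, adjusted p = 5.41e-05). Cebpb, a partner of ATF4 on DNA, rose after 1 h at 40 °C (0.74, adjusted p = 0.0393) and at 42.5 °C (1.41, adjusted p = 2.28e-05). Its 6 h value of 0.78 did not pass the threshold (adjusted p = 0.0601), with replicate C at 16.5 CPM and the others at 5.62 to 6.90 CPM.

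Among 7 other amino acid transporters tested, 1 was called after 6 h at 40 °C, Slc6a9, the glycine transporter GlyT1. It went from 5.89 to 7.28 CPM at 37 °C to 3.28, 3.80, 3 and 3.74 CPM, and its log2 difference was -0.89 (SE 0.15, adjusted p = 0.000341). The control library left out held 3.85 CPM, and with it the difference was -0.75 (adjusted p = 0.0379). Without that library 1 of the 7 rose and 2 fell after 6 h at 40 °C, with a median of -0.13. At 42.5 °C 2 fell and the other 5 did not pass, with a median of -0.20. With all 4 controls 1 rose and 1 fell after 6 h at 40 °C, and 2 fell at 42.5 °C. Over all genes, in the tests with 3 controls, 3.11% were called and 29.4% passed the adjusted p after 6 h at 40 °C, beside 7.51% and 43.1% at 42.5 °C. Among 8 other amino acid synthesis enzymes, 1 rose and 3 fell after 6 h at 40 °C and 1 rose and 4 fell at 42.5 °C. With all 4 controls 1 of them rose and 1 fell after 6 h at 40 °C, and 3 of 7 tested fell at 42.5 °C. Asns, the asparagine synthetase much used as a readout of ATF4, measured 42.1 to 48.9 CPM at 37 °C and 30.2, 49.1, 33.2 and 33.1 CPM after 6 h at 40 °C, with replicate B above every control (log2 fold change -0.33, SE 0.12, adjusted p = 0.0458; with all 4 controls -0.41, adjusted p = 0.111). At 42.5 °C it measured 44.0 to 53.9 CPM, a difference short of the threshold (0.14, adjusted p = 0.16). Aldh18a1, the first enzyme of proline synthesis, was called higher after 6 h at 40 °C (1.06, SE 0.31, adjusted p = 0.0157), on 13 to 25 counts per library against 8 to 10 in the controls.

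Other one-carbon enzymes numbered 9 tested, of which 1 rose and 4 fell after 6 h at 40 °C and 2 fell at 42.5 °C, where the other 7 did not pass. With all 4 controls 2 fell after 6 h at 40 °C and 1 fell at 42.5 °C. Over all genes, in the tests with 3 controls, 29.4% and 43.1% passed the adjusted p in these 2 comparisons. The glycine cleavage enzymes Gldc and Amt, which make one-carbon units from glycine, were the 2 called. Gldc fell after 6 h at 40 °C (-0.77, SE 0.27, adjusted p = 0.0436; with all 4 controls -0.74, adjusted p = 0.065) on 8 to 14 counts per library against 15 to 26 in the controls. Amt fell at 42.5 °C from 6.23 to 6.61 CPM down to 1.55 to 2.43 CPM (log2 fold change -1.65, SE 0.17, adjusted p = 1.77e-06), while after 6 h at 40 °C it was higher, at 7.18 to 9.75 CPM (0.43, adjusted p = 0.0195; with all 4 controls 0.38, adjusted p = 0.0781).

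The last list held 9 further ATF4 targets. After 6 h at 40 °C 4 fell and 5 did not pass, with a median of -0.32. Of these 4, 2 were called: Sesn2, a stress sensor that restrains mTORC1 (-0.72, SE 0.12, adjusted p = 0.000345), and the secreted glycoprotein Stc2 (-0.69, SE 0.11, adjusted p = 0.000157). At 42.5 °C 2 rose and 4 fell, and with all 4 controls 1 rose and 3 fell. Chac1, which degrades glutathione, was called higher there, from 8.97 to 9.96 CPM at 37 °C up to 23.9 to 57.8 CPM (log2 fold change 2.03, SE 0.25, adjusted p = 1.56e-05). Trib3, a pseudokinase that feeds back on ATF4 (-0.84, adjusted p = 9.33e-05), and Stc2 (-0.59, adjusted p = 4.28e-05) were called lower, although with all 4 controls Stc2 was short of 1.5-fold (-0.57, adjusted p = 0.00172). Sesn2 also fell after 1 h at 40 °C (-0.53, adjusted p = 0.0332; with all 4 controls -0.54, adjusted p = 0.188) and was the only gene of these further targets past the threshold. Over all 46 tested genes of these 5 lists, 22 passed the adjusted p after 6 h at 40 °C, 6 upwards and 16 downwards, with a median of -0.10, beside 29.4% of all genes and 14.8% downwards. At 42.5 °C 22 passed as well, 9 upwards and 13 downwards, with a median of 0.01, beside 43.1% of all genes. With all 4 controls 2 passed upwards and 9 downwards after 6 h at 40 °C, and 5 upwards and 9 downwards at 42.5 °C.

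**Figure D4:**
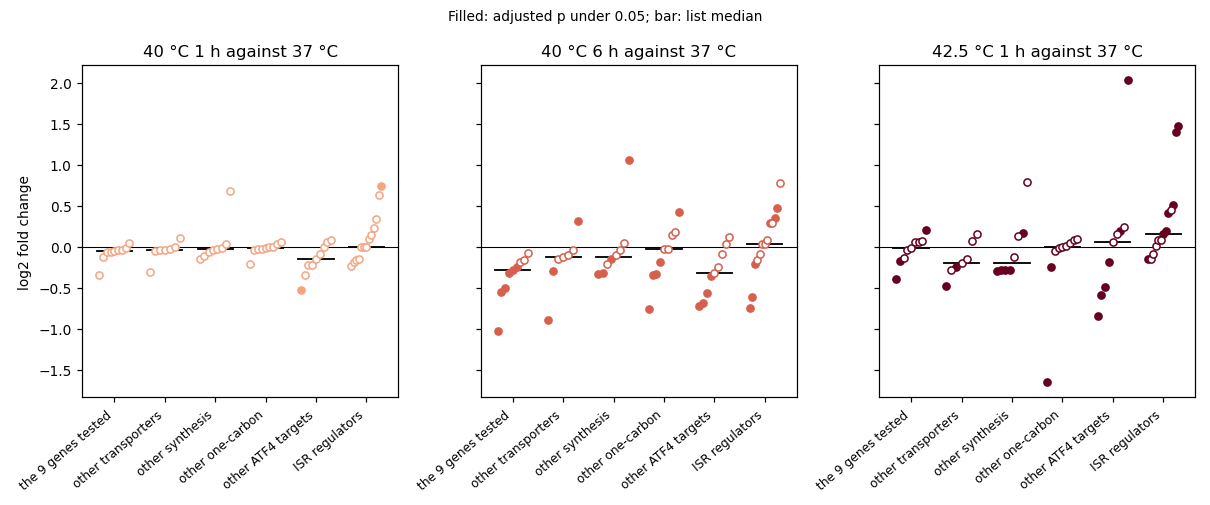
Fitted log2 fold change against 37 °C (vertical axis) of each tested gene in the amino acid list and 5 related lists, with 1 panel for each heat treatment; filled points have an adjusted p under 0.05 and bars are list medians. In the 40 °C 6 h panel the 9 amino acid genes all lie below 0 with a median of -0.28, and in the 42.5 °C panel Chac1 at 2.03 and Amt at -1.65 lie farthest out.

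The genes whose 3 fold changes against 37 °C came closest to those of the called genes were found among 9296 genes with a symbol by the root mean square difference of the log2 values. For Slc7a11 they were Zc3h6 (0.04), Garnl3 (0.05) and Ankrd1 (0.08). Ankrd1, a nuclear cofactor of muscle and stressed cells, went to -0.32, -0.89 and -0.10 after 1 h and 6 h at 40 °C and at 42.5 °C. For Slc7a1 they were Extl1 (0.02), Shisa7 (0.03) and Cdc42ep3 (0.04), and Cdc42ep3, an effector of Cdc42, went to 0.00, -0.52 and 0.22. No pathway gene of the lists above was among these 6. Those lists held 46 tested genes, beside 9296 genes compared, so their absence here says little.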

How the data were processed

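The authors sequenced total RNA of CHO cells as paired-end TruSeq libraries, mapped trimmed reads to the Chinese hamster genome CHOK1GS_HDv1 in CLC Genomics Workbench and deposited whole-number read counts per gene and library, without normalization (bcl2fastq is named in the submitters' processing notes). The annotation release, strand setting and treatment of multiply mapped reads are not given in the sources used here, so reads shared by related genes could be split. Of 20824 genes, 4423 carry an identifier only, and 14960 have a count. No genome of that build was used, so no coordinates or sequences are given. Total counts were 10504192 to 14668365 per library, and precision depends on the counts of a gene and on the spread between libraries.

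Counts were filtered (filterByExpr), TMM-scaled and tested pairwise in edgeR 4.0.16 (R 4.3.3) by quasi-likelihood, without the control library D that the study left out. P-values were adjusted by the Benjamini-Hochberg method over all genes tested, and calling a gene took an adjusted p under 0.05 together with a fold change of 1.5 or more in either direction. The test was checked on simulated counts with the same dispersion (spread beyond counting error) for every gene and no library that stood apart. That check therefore does not cover such libraries. Alternatives were size factors as in DESeq2, DESeq2 1.42.0, no filter, all 4 controls, 1 fit over all groups, replicate letter as block, adjusted p alone, glmTreat and each library left out. The adjusted p alone with all 4 controls, the related lists with all 4 controls, and the ratios were added after seeing the data. Named genes were the 10, Atf4, Asns, Aldh18a1, every related-list gene called against 37 °C, and the 3 nearest genes to each called member. The members and lists were chosen with earlier results of these data known. Of the listed names, Glul, Tyms and Cd68 were not found, and Slc7a2, Slc7a3, Slc7a8, Slc38a1, Slc43a1, Cbs, Aldh1l1, Aldh1l2 and Cth had too few counts to test.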

Additional observations from a re-analysis of the deposited data

Results flagged for a closer look

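Slc7a5 stood at 153 CPM in replicate D at 37 °C, while the other 3 libraries of that group held 260 to 273 CPM, a gap that made up most of the group's range. It is the library left out of the tests, and its difference from the others was of the same size for Slc7a11. Psph stood at 67.9 CPM in replicate C after 1 h at 40 °C, while the other 3 libraries held 59.2 to 60.7 CPM. These were 2 of 40 groups of 4 libraries examined in this way, where chance alone gives about 1 in 20. Slc7a1 moved in opposite directions in the stronger treatments, lower after 6 h at 40 °C and higher after 1 h at 42.5 °C than at 37 °C, and the 2 treatments differed directly by 0.75 on the log2 scale (edgeR, adjusted p = 8.86e-09), with all 4 libraries of one above all 4 of the other.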

How the results depend on the processing

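The number of the 9 genes called was the same under DESeq2's size factors, the DESeq2 test, no filter, all 4 controls and 1 fit over all groups, in each comparison these apply to. With the adjusted p alone the count was 6 rather than 1 for 6 h at 40 °C against 37 °C, 3 rather than 0 for 42.5 °C against 37 °C, 6 rather than 1 for 6 h against 1 h at 40 °C, 4 rather than 0 for 42.5 °C against 40 °C for 1 h, and 6 rather than 2 for 42.5 °C against 6 h at 40 °C. By adjusted p with all 4 controls it was 4 for 6 h at 40 °C and 1 for 42.5 °C. With glmTreat, which tests against a 1.5-fold change, it was 0 for 6 h against 37 °C, 0 for 6 h against 1 h and 1 for 42.5 °C against 6 h. Leaving out single libraries gave 1 to 2 called genes for 6 h against 37 °C (2 without replicate A of the 6 h group) and 0 to 1 for 6 h against 1 h (0 without replicate C of either group).

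Among values that passed no threshold, the sign turned with all 4 controls for Slc7a5 (0.034) and Slc7a1 (0.064) after 1 h at 40 °C and for Slc7a11 (0.023) and Psph (-0.016) at 42.5 °C. Without single libraries it turned for Slc7a1 (-0.068 to 0.002) and Psph (-0.058 to 0.018) after 1 h at 40 °C, for Phgdh (-0.029 to 0.002) at 42.5 °C and for Psat1 (-0.026 to 0.016) between the 1 h treatments. After 6 h at 40 °C, Slc3a2 (adjusted p = 0.0115) and Psat1 (adjusted p = 0.0208) passed with no filter and Psat1 (adjusted p = 0.0428) with 1 fit over all groups, and in that fit Slc3a2 between the 1 h treatments did not (adjusted p = 0.154). The cause was not tested.

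The same letters A to D recur in the labels of every group, but the labels do not say what a letter stands for. The letters were therefore not taken as pairs in the main tests, and whether same-lettered libraries were handled together is not known. Deviations from the group means correlated at a mean of 0.06 over 21 same-lettered pairs (-0.05 to 0.19) and of -0.02 over 63 others (-0.24 to 0.19), and 6 of 15 libraries were nearest to one with their own letter. With the letter as a replicate block the counts called stayed at 0, 1 and 0 against 37 °C and 1, 0 and 2 between the heated groups. The block made Psat1 after 6 h at 40 °C (adjusted p = 0.0407) and Slc7a5 between 42.5 °C and 6 h at 40 °C (adjusted p = 0.0346) pass, and turned Psph after 1 h at 40 °C to 0.007. The promoter motif description and its alternative were not run here, as no promoter sequences were used. Depth limited Slc7a11, at 28 to 83 counts, and Cth, at 0 or 1.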
